A study of Mus musculus with 12 samples.

Results

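The response of knockout liver to FFC, a diet high in fat, fructose and cholesterol, was described from 6 of the 12 libraries of the series, 3 from FFC-fed and 3 from chow-fed mice. These libraries were chosen by their genotype and diet labels, and 16283 of the 43346 genes in the count table had enough counts to be tested. Knockout mice were S1pr1loxp/loxp;Lyz2-Cre/0, with a Cre made from the Lyz2 locus, which is active in macrophages, monocytes and neutrophils, so other liver cells keep S1pr1. The other 6 libraries came from littermates, called wild type, that carried the same S1pr1loxp/loxp alleles without Cre and received the same diets, and they entered the shared estimate of spread and the comparison at the end. FFC, the AIN-76A Western Diet, or chow was given for 24 weeks to mice that were 12 weeks old at the start. The labels used here give no sex, nor whether the libraries of a group come from separate mice; the p-values measure the spread from library to library, which may be technical. RNA was taken from whole liver, where fewer cells of a type and less RNA per cell cannot be told apart.

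S1pr1 encodes a receptor for sphingosine 1-phosphate, a lipid mediator that steers the movement of leukocytes and keeps endothelium tight. Cholesterol that reaches hepatocytes holds back SREBP2, the transcription factor that drives the genes of cholesterol synthesis, while its oxidised derivatives activate LXR, which drives export genes. Surplus fatty acid is desaturated, joined to glycerol and stored in droplets coated by perilipin and CIDE proteins. In steatohepatitis, fatty liver with inflammation, the resident macrophages known as Kupffer cells are joined by monocyte-derived macrophages, and stellate cells deposit collagen.

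Total counts were 18873092 to 25855609 in the knockout chow and 25773607 to 27652530 in the knockout FFC libraries, and levels are given as CPM, counts divided by the library size after trimmed-mean scaling. S1pr1 itself stood at 41.5, 28.2 and 32.9 CPM in knockout chow replicates 1, 2 and 3 and at 35.3, 35.7 and 38.9 CPM in knockout FFC replicates 1, 4 and 7, the order used for all values below. The ranges overlapped, and the diet difference did not pass the test (log2 change 0.10, SE 0.20, edgeR adjusted p = 0.747). Counts per gene over the whole liver do not resolve the deletion in myeloid cells. All 16 hepatocyte markers, albumin included, had counts in the knockout libraries, which bears on the label of liver tissue. Knockout chow replicate 1 stood apart by base composition: genes in its highest quartile of GC content lay 1.13 above those in the lowest on the log2 scale, relative to the average library, against -0.41 to 0.20 in the other 5 knockout libraries. Chow and FFC libraries also differed in complexity: 16008 to 16766 genes had a count in the chow and 19401 to 19641 in the FFC libraries when thinned to the same effective depth. The scaling factors differed too, at 0.7588 to 0.8497 in the chow and 1.0876 to 1.1694 in the FFC libraries. A higher factor lowers every CPM of its library, so all changes below are relative to this scaling. The biological coefficient of variation was 0.437 among the chow libraries, 0.377 without replicate 1, and 0.205 among the FFC libraries. The fit of all 12 libraries shared 1 spread across the 4 groups, with a coefficient of 0.265. That is below the spread of the knockout chow libraries and above that of the knockout FFC libraries. The part that these library differences play in the results below was not tested beyond the fits given beside them.

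**Figure D1:**
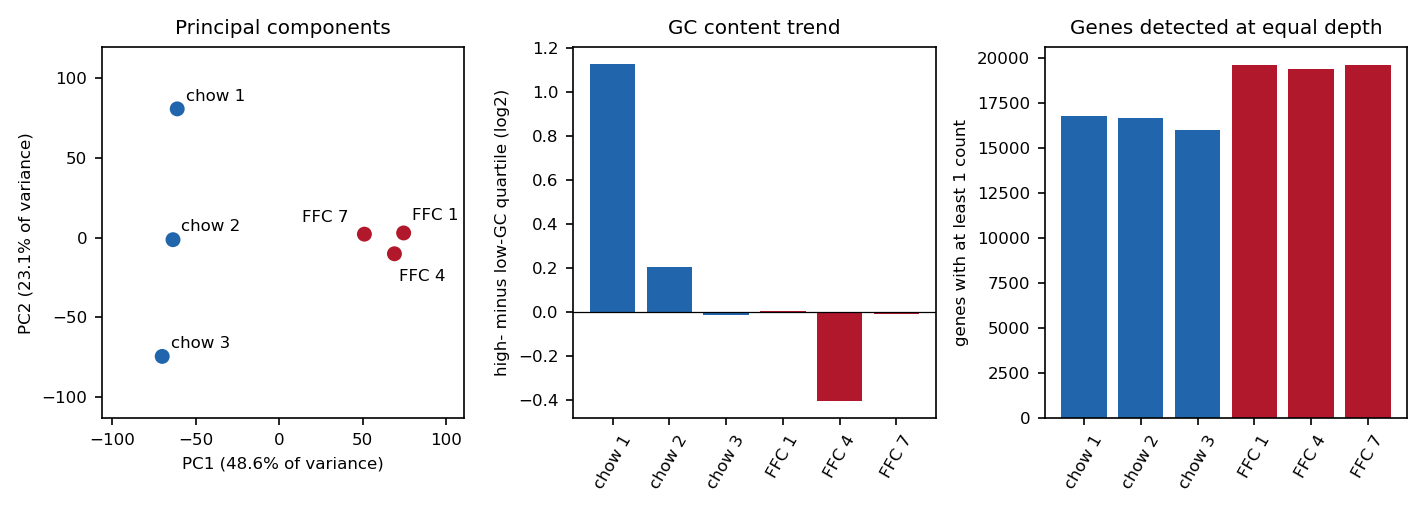
Libraries of knockout liver. Left, the first 2 principal components of log2 CPM over the 6 libraries, with chow in blue and FFC in red; the diets separate on the first (48.6% of the variance) and the 3 chow libraries spread along the second (23.1%). Middle, the GC content trend of each library (log2), highest at 1.13 in chow replicate 1. Right, genes with at least 1 count at equal effective depth, 16008 to 16766 on chow and 19401 to 19641 on FFC.

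Livers of knockout mice on FFC had lower levels of mRNAs for cholesterol synthesis and for many hepatocyte products. Many mRNAs for lipid storage, macrophages, matrix and cell division had higher levels. The counts for each list follow below. Of the 16283 genes tested, 4312 (26.5%) passed edgeR's quasi-likelihood test at an adjusted p under 0.05, of which 2231 (13.7%) rose and 2081 (12.8%) fell. A call with a change of more than 2-fold was made for 2307 (14.2%) of the tested genes, 1321 higher (8.11%) and 986 lower (6.06%). The median log2 change of all tested genes was 0.09. The counts per list below are to be read beside the shares of 13.7% higher and 12.8% lower. Without knockout chow replicate 1 the number called was 4442 (26.5% of 16789 tested), of which 3395 were shared with the 4312. In a fit of the 6 knockout libraries alone it was 2355 (15.5% of 15164 tested), with 942 higher (6.21%) and 1413 lower (9.32%), so that 40% of the calls were higher against 51.7% in the fit of all libraries. With GC and length offsets it was 3718 (22.8%), 1721 higher and 1997 lower. Without knockout FFC replicate 1 it was 2751, and without knockout FFC replicate 4 it was 2814. No gene called in the fit of all libraries was called in the opposite direction in any of the 25 other settings run, and 1838 of the calls (791 higher, 1047 lower) held without knockout chow replicate 1, with offsets for GC content and length, and in the knockout libraries alone.

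**Figure D2:**
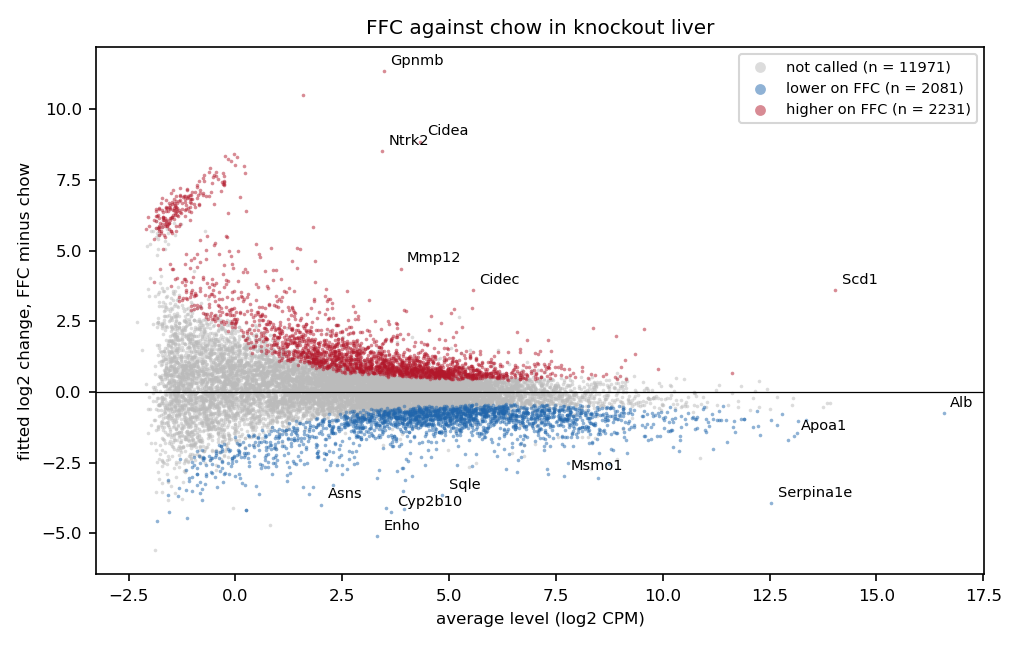
Change of every tested gene against its level. The x axis is the average level (log2 CPM) and the y axis the fitted log2 change, FFC minus chow, in knockout liver; grey points are 11971 genes not called, blue 2081 lower and red 2231 higher. The band of red points above 5 at low levels includes the genes without counts in the chow libraries, whose fitted change has no upper limit in the data; Gpnmb is among these.

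Of the genes past the conditions set for naming, the largest rises included genes of lipid storage, of macrophages and of cell signalling. Gpnmb (ENSMUSG00000029816, mm10 chromosome 6, 49036518 to 49058182), a transmembrane glycoprotein of lipid-laden macrophages, had 0, 0 and 0 CPM in the chow and 21.1, 8.51 and 8.07 CPM in the FFC libraries. It was at least 231-fold higher on FFC when 3 counts over the chow group are taken as the floor (edgeR adjusted p = 1.5e-05). FFC replicate 1 was the highest library. With no count in the chow libraries, Gpnmb passed the filter on low counts through other libraries, which fixed its direction. Ntrk2, the receptor for brain-derived neurotrophic factor, had 0, 0.153 and 0 CPM in the chow and 25.8, 17.7 and 21.6 CPM in the FFC libraries. From 3 chow and 1956 FFC counts, the ratio of its levels was 399.6 (95% exact interval 137 to 1939.5, counting error only). Stk10, a serine-threonine kinase of lymphocytes, stood at 1.13, 0.306 and 0.527 CPM on chow and 9.59, 4.90 and 5.17 CPM on FFC (log2 change 3.299, SE 0.42, edgeR adjusted p = 9.0e-05; 4.00 without knockout chow replicate 1). Lepr, the leptin receptor, was highest in FFC replicate 4, at 5.84, 15.9 and 3.10 CPM on FFC against 0.637, 0.663 and 1.58 CPM on chow (log2 change 3.14, SE 0.55, edgeR adjusted p = 7.9e-04), and without that library its log2 change was 2.25. Gramd1b, which carries cholesterol from the plasma membrane to the endoplasmic reticulum, rose by 3.31 (SE 0.68) and by 4.38 without knockout chow replicate 1. Themis, a signalling protein of developing T cells, rose by 3.24, Ly6d by 3.05 and Ttc39a by 3.41 on the log2 scale, and Ttc39a by 5.77 without knockout chow replicate 2, where it was highest on chow.

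The largest falls were in a secreted peptide, in enzymes and in serum proteins. Enho, which encodes the secreted peptide adropin, had 25.7, 46.8 and 8.69 CPM in the chow and 0.929, 0.642 and 0.790 CPM in the FFC libraries. All 3 FFC libraries lay below 1 CPM, and the log2 change was -5.10 (SE 0.55, edgeR adjusted p = 5.8e-05; -4.48 without knockout chow replicate 2). Cadm4, a cell adhesion molecule, fell from 19.9, 11.2 and 11.1 CPM to 1.76, 1.99 and 2.63 CPM (log2 change -2.72, SE 0.30, edgeR adjusted p = 3.5e-05). Prss8, the membrane protease prostasin, fell from 21.6, 28.2 and 13.7 CPM to 3.68, 3.55 and 2.27 CPM (log2 change -2.74, SE 0.37, edgeR adjusted p = 1.2e-04), and shares exon bases with Kat8 on the other strand. Cyp26a1, which degrades retinoic acid, fell from 14.5, 61.8 and 40.2 CPM to 4.81, 5.81 and 4.38 CPM (log2 change -2.96, SE 0.54, edgeR adjusted p = 0.00263). Serpina1e and Selenbp2 fell by 3.94 and 3.05 on the log2 scale (changes of -4.63 and -4.14 without knockout FFC replicate 7), and both have close paralogs, so their reads may be split uncertainly.

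Expression of the cholesterol synthesis pathway was lower at nearly every step. Of 20 genes tested, 17 fell, 0 rose and 3 did not pass (median log2 change -1.93, against 0.09 for all genes, of which 12.8% fell). Without knockout chow replicate 1 the count was 18 with a median of -2.104, and with GC and length offsets 18 with -2.04. The chow libraries differed among themselves, with replicate 2 highest for most enzymes of the pathway. Mvk (ENSMUSG00000041939, mm10 chromosome 5, 114444269 to 114460591), mevalonate kinase, stood at 25.9, 49.3 and 22.2 CPM on chow and 5.41, 4.46 and 5.27 CPM on FFC. Each chow library was at least 4 times as high as any FFC library, and the log2 change was -2.69 (SE 0.27, edgeR adjusted p = 1.5e-05). Mvd, the mevalonate diphosphate decarboxylase of the same branch, fell by 3.06 (a change of -1.93 without knockout chow replicate 2). Sqle, squalene epoxidase, had 28.8, 67.3 and 29.2 CPM in the chow and 2.65, 4.90 and 2.50 CPM in the FFC libraries, with no overlap (log2 change -3.64, SE 0.40, edgeR adjusted p = 6.2e-05). Msmo1, a methylsterol oxidase, had 165, 681 and 247 CPM in the chow and 35.5, 67.5 and 36.4 CPM in the FFC libraries, and fell by 2.97 (a change of -2.17 without knockout chow replicate 2, its highest library). Tm7sf2, a sterol reductase, had 208, 170.0 and 119.6 CPM in the chow and 22.5, 22.9 and 30.3 CPM in the FFC libraries (log2 change -2.71, SE 0.21, edgeR adjusted p = 1.3e-06), the lowest p of the pathway, and shares exon bases with Vps51. Dhcr7, the last reductase before cholesterol, fell from 108, 192 and 98.6 CPM to 38.2, 42.8 and 30.8 CPM (log2 change -1.84, SE 0.24, edgeR adjusted p = 9.6e-05). The 3 genes that did not pass were Hmgcs1 (-0.64, edgeR adjusted p = 0.356), Sc5d (-0.53, edgeR adjusted p = 0.165) and Acat2 (-0.21, edgeR adjusted p = 0.534). Hmgcs1 moved to 0.11 without knockout chow replicate 2, and Sc5d passed without knockout chow replicate 1 (-0.85, edgeR adjusted p = 0.00671).

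Genes that SREBP2 drives outside the pathway were lower too: 7 of 8 tested fell, with a median of -1.18. Srebf2, which encodes SREBP2 itself, stood at 64.9, 48.6 and 31.2 CPM on chow and 21.1, 17.4 and 19.0 CPM on FFC (log2 change -1.33, SE 0.22, edgeR adjusted p = 4.7e-04). Tmem97, a regulator of cholesterol transport, and the retinol dehydrogenase Rdh11 fell by 1.17 and 1.55.

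Promoters are shown for the 4 called genes of cholesterol synthesis with the lowest p that a RefSeq window could be matched to, and for Hmgcs1, the one window with a sterol regulatory element. The windows run from 250 bases before to 50 bases after the gene start (GRCm38.p6) and were chosen after the values were seen. Of the 20 genes, 15 matched a window. The box CCAAT, the recognition sequence of the factor NF-Y, was searched on both strands and was present for 14 of the 15 genes, against 42.6% of 10667 tested genes with a window and 41.1% of 27025 genes in all. Over all called genes with a window, it was present for 45.9% of 1292 lower and 40.8% of 1532 higher genes. The 14 include Hmgcs1 and Sc5d, which did not pass the diet test, and Acat2, which also did not pass, was the gene without the box. The sterol regulatory element, searched as TCACNCCAC on both strands, was present for 1 of the 15, against 1.53% of tested genes, and in Hmgcs1 it overlapped none of the CCAAT boxes. Capitals mark CCAAT or its reverse complement, and in Hmgcs1 also the sterol regulatory element. Dhcr7 has 3 windows, of which the shown one alone holds the box, and the Mvk window shares 259 bases with that of Mmab on the other strand. A match describes these letters only, since binding was not measured, and an SREBP site written with other letters would be missed.
Tm7sf2 (chr19:6067801-6068100, minus strand, 1 box): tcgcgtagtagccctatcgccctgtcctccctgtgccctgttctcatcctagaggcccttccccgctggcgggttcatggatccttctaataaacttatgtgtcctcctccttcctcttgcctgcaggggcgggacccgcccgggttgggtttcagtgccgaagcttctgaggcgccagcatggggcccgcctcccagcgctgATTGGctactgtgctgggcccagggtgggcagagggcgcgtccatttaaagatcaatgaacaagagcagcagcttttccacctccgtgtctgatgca
Mvk (chr5:114444019-114444318, plus strand, 5 boxes): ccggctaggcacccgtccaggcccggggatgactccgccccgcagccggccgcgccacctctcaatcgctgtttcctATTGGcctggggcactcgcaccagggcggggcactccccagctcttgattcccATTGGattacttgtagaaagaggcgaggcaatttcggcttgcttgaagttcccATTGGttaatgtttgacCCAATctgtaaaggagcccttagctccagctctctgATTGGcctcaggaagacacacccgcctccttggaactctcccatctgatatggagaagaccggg
Dhcr7 (chr7:143829964-143830263, plus strand, 2 boxes): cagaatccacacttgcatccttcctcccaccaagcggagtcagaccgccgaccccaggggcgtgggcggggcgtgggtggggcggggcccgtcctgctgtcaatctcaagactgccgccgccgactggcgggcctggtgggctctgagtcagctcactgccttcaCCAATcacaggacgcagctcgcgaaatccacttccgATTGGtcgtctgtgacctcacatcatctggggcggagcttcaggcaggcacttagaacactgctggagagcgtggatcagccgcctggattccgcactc
Ebp (chrX:8193463-8193762, minus strand, 2 boxes): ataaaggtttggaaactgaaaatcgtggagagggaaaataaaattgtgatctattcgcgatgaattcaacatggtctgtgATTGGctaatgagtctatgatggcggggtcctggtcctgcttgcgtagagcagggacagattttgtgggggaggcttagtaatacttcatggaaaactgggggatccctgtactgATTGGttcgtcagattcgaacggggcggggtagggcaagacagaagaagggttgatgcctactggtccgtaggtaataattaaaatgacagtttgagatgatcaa
Hmgcs1 (chr13:119690101-119690400, plus strand, 4 boxes and the element): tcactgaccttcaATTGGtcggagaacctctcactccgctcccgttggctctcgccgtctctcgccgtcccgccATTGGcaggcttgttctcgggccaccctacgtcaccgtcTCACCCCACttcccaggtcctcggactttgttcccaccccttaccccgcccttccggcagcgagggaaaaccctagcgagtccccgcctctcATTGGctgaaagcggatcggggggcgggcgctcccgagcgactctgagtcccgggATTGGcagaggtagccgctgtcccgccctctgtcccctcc

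Genes that esterify, release or export cholesterol moved in both directions. Of 17 tested, 6 rose and 3 fell (median -0.03). Soat1, which esterifies cholesterol for storage, stood at 1.71, 1.78 and 4.08 CPM on chow and 7.80, 8.11 and 4.97 CPM on FFC (log2 change 1.48, SE 0.33, edgeR adjusted p = 0.00396), and its call was lost when the knockout libraries were fitted alone without chow replicate 1. Nceh1 and Lipa, which hydrolyse cholesterol esters in the cytosol and the lysosome, rose by 0.89 and 0.89. Among the others that rose were the sterol exporters Abca1 (0.77), Abcg1 (1.30) and Abcg5 (0.90), named after their values were seen. Lcat, the plasma enzyme that esterifies cholesterol on lipoproteins, fell from 804, 619 and 484 CPM to 253, 193 and 303 CPM (log2 change -1.35, SE 0.21, edgeR adjusted p = 3.8e-04).

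Bile acid genes were lower where they passed the test, apart from Abcb4. Of 13 genes of synthesis, 5 fell and 0 rose (median -0.29; 2 fell without knockout FFC replicate 1 and 3 without knockout FFC replicate 7). Cyp7b1, of the alternative pathway that starts from oxysterols, stood at 343, 306 and 242 CPM on chow and 69.2, 76.6 and 158 CPM on FFC (log2 change -1.55, SE 0.30, edgeR adjusted p = 0.00159). Slc27a5, which activates bile acids for conjugation, fell from 2187, 1730.2 and 1792 CPM to 828, 919.8 and 977 CPM (log2 change -1.07, SE 0.17, edgeR adjusted p = 4.7e-04). Cyp7a1, the rate-limiting enzyme of the classical pathway, ranged from 129.6 to 624 CPM across the 6 libraries and did not pass (log2 change -0.72, SE 0.50, edgeR adjusted p = 0.311; -0.02 without knockout chow replicate 2, the highest library). Of 12 genes of transport and of the bile acid receptor FXR, Abcb4, which exports phosphatidylcholine into bile, was the one that rose, and 3 fell. Its levels went from 139.7, 97.9 and 133 CPM to 240.3, 206 and 270.2 CPM (log2 change 0.95, SE 0.20, edgeR adjusted p = 0.00274). The number called was 1 without knockout FFC replicate 1 and 2 without knockout FFC replicate 4, and without knockout chow replicate 3 it split into 2 higher and 1 lower.

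Many genes of lipid storage were higher on FFC. Of 11 targets of PPAR gamma, the adipogenic receptor, 9 rose and 0 fell, with a median log2 change of 2.37. The number called was also 9 in the knockout libraries alone and 9 without knockout chow replicate 1. The summed level of the listed targets overlapped between diets, at 1774 to 2972 CPM on chow and 1587 to 2607 CPM on FFC. Pparg itself stood at 8.77, 10.8 and 11.7 CPM on chow and 25.5, 21.8 and 16.1 CPM on FFC (log2 change 1.02, SE 0.23, edgeR adjusted p = 0.00405). Cidea, a droplet fusion protein that is scarce in lean liver, had 0.0490, 0.204 and 0 CPM in the chow and 47.2, 48.4 and 36.5 CPM in the FFC libraries. Every FFC library was above 36 CPM and no chow library above 0.21, and the log2 change was 8.86 (SE 0.65, edgeR adjusted p = 3.2e-06). Without knockout chow replicate 2, which held most of its chow counts, the fitted change was 10.37. Cidec, its relative, stood at 8.08, 2.04 and 5.86 CPM on chow and 75.6, 58.9 and 60.7 CPM on FFC (log2 change 3.61, SE 0.34, edgeR adjusted p = 1.4e-05). Mogat1, which makes diglyceride for triglyceride synthesis, stood at 1.96, 1.48 and 1.58 CPM on chow and 9.32, 9.49 and 7.21 CPM on FFC (log2 change 2.37, SE 0.30, edgeR adjusted p = 7.7e-05). Plin4, a droplet coat protein, rose by 2.94 (3.86 without knockout chow replicate 1) and shares exon bases with Hdgfrp2 on the other strand. Fabp4 and Cd36, which bind and take up fatty acids, rose by 1.26 and 1.45, and both are also made by macrophages and endothelium.

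Among 19 genes of lipogenesis 8 rose and 0 fell, while 11 did not pass (median 0.50). Scd1 (ENSMUSG00000037071, mm10 chromosome 19, 44394451 to 44407709), the stearoyl-CoA desaturase of liver, had 1432, 1987 and 3053 CPM in the chow and 23721, 30569.9 and 23693 CPM in the FFC libraries. The lowest FFC library was more than 7 times the highest chow library (log2 change 3.59, SE 0.35, edgeR adjusted p = 1.5e-05). Its relative Scd2 had 7.98, 7.03 and 5.00 CPM on chow and 50.9, 46.5 and 59.9 CPM on FFC (log2 change 2.97, SE 0.32, edgeR adjusted p = 3.3e-05). Acaca, the acetyl-CoA carboxylase that commits carbon to fatty acids, stood at 27.9, 42.0 and 36.5 CPM on chow and 78.8, 130.2 and 74.4 CPM on FFC (log2 change 1.41, SE 0.21, edgeR adjusted p = 2.7e-04), and Me1, malic enzyme, rose by 1.38. Fasn, fatty acid synthase (-0.53, edgeR adjusted p = 0.157), Acly, ATP citrate lyase (0.15, edgeR adjusted p = 0.659), and Srebf1, their transcription factor (-0.64, edgeR adjusted p = 0.0601), did not pass, though Fasn (-0.89) and Srebf1 (-0.85) fell without knockout chow replicate 3 (edgeR adjusted p 0.00460 and 0.0171), and Srebf1 without wild-type chow replicate 3 (0.0493). Among 19 lipid droplet genes 6 rose and 3 fell. The 6 include Cidea, Cidec, Mogat1 and Plin4, already named above. Those that fell were the triglyceride enzymes Dgat2 (-0.97), Dgat1 (-0.71) and the lipase Pnpla2 (-0.74). For Pnpla2 the edgeR adjusted p was 0.0755 without knockout chow replicate 1 and 0.101 without knockout FFC replicate 4. The summed level of the listed droplet genes overlapped between diets, at 2263 to 2893 CPM on chow and 2744 to 3014 CPM on FFC. Of 7 markers of adipose tissue, 3 were tested and 1, the protease gene Cfd, rose (0.882, 0.153 and 0.132 CPM on chow, 7.17, 17.4 and 5.63 CPM on FFC; log2 change 4.62, 6.09 without knockout chow replicate 1 and 3.98 without knockout FFC replicate 4). The summed level of the 7 was 2.99 to 5.40 CPM on chow and 13.6 to 31.8 CPM on FFC, Adipoq, Lep, Retn and Plin1 had too few counts to be tested, and the part of adipose tissue in the lipid results was not tested.

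**Figure D3:**
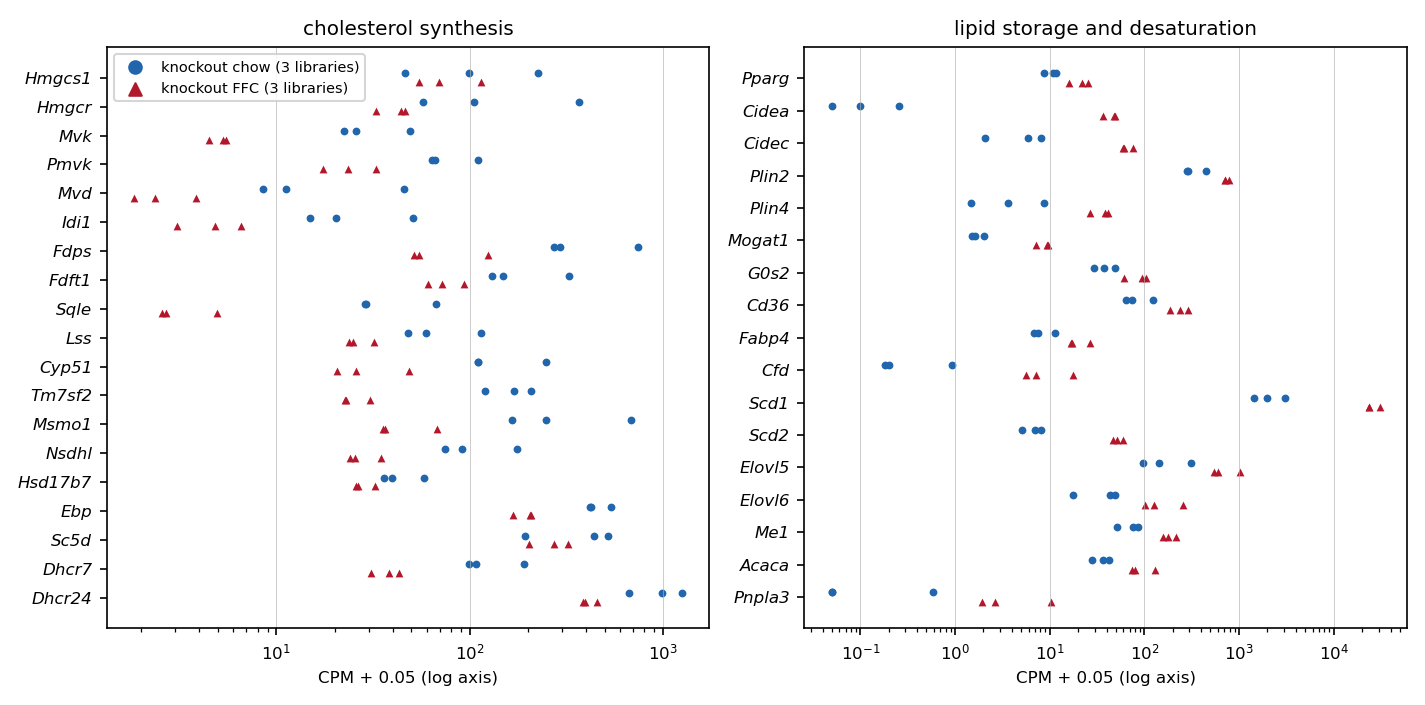
Levels of lipid genes in the 6 knockout libraries. Each point is 1 library on a log axis of CPM + 0.05, with blue circles for chow and red triangles for FFC; the genes drawn were chosen after their values were seen. On the left, Mvk lies at 22.2 CPM or more on chow and at 5.41 CPM or less on FFC, while the ranges of Hmgcs1 overlap; on the right, Scd1 and Cidea lie far higher on FFC.

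Fatty acid oxidation genes were split. Of 24 tested, 7 rose and 4 fell (median 0.26), and 4 rose and 2 fell without knockout chow replicate 1, with GC and length offsets, or in the knockout libraries alone. Likewise 4 rose without knockout chow replicate 2 or knockout FFC replicate 1 and 3 without knockout FFC replicate 4. Cpt1a, which admits fatty acids to mitochondria, stood at 305, 365 and 372 CPM on chow and 659, 657 and 619 CPM on FFC (log2 change 0.89, SE 0.18, edgeR adjusted p = 0.00177). Vnn1, a pantetheinase induced by PPAR alpha, rose by 1.51. Acads, the short-chain acyl-CoA dehydrogenase, fell from 327, 298 and 268 CPM to 119.5, 91.7 and 104 CPM (log2 change -1.50, SE 0.17, edgeR adjusted p = 3.4e-05), and Acaa2, the thiolase of the last step, fell by 0.69.

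Of 25 genes of fructose, glucose and pentose phosphate metabolism, 3 rose and 4 fell, near the share of all genes. G6pdx, which makes NADPH at the entry of the pentose phosphate pathway, rose from 5.29, 5.81 and 5.40 CPM to 10.8, 14.1 and 10.5 CPM (log2 change 1.10, SE 0.24, edgeR adjusted p = 0.00332). Its exons overlap those of Ikbkg on the other strand, which had the higher count. Pfkl, liver phosphofructokinase, fell by 0.98. The ketohexokinase gene Khk, which starts fructose breakdown, did not pass (-0.12, edgeR adjusted p = 0.620). The list's count depended on single libraries, with 2 genes called without knockout FFC replicate 4, 3 without knockout chow replicate 2, 4 without knockout FFC replicates 1 or 7, and 3 higher and 2 lower without wild-type chow replicate 4 or any 1 of the wild-type FFC libraries.

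Hepatocyte products were lower across many functions. Of 16 hepatocyte markers 13 fell and 0 rose (median -0.96), and their summed level was 169064 to 238365 CPM in the chow and 115804 to 133405 CPM in the FFC libraries. Before scaling, albumin made up 7.31, 10.535 and 12.402% of the counts on chow and 8.015, 9.196 and 7.782% on FFC, with an overlap. Ahsg, the secreted protein fetuin-A, had 10353, 10659 and 8468 CPM in the chow and 4238, 4352 and 4483 CPM in the FFC libraries (log2 change -1.17, SE 0.18, edgeR adjusted p = 3.4e-04). Apoh, beta-2-glycoprotein I, fell by 0.98. Of 34 genes of complement and coagulation, 19 fell and 2 rose. C8b, a chain of the membrane attack complex, stood at 468, 668 and 382 CPM on chow and 124, 109 and 202 CPM on FFC (log2 change -1.80, SE 0.27, edgeR adjusted p = 2.7e-04). The coagulation factor genes F7, F10 and F12 fell by 1.00, 1.05 and 1.34. Of 20 acute phase genes 9 fell and 1 rose (median -1.23). Itih4, an inter-alpha-trypsin inhibitor chain, had 3866, 4159 and 2387 CPM on chow and 1692, 1658 and 1604 CPM on FFC (log2 change -1.07, SE 0.19, edgeR adjusted p = 9.6e-04), while Saa1 (-1.64, edgeR adjusted p = 0.379) and Saa2 (-1.84, edgeR adjusted p = 0.326), serum amyloid A genes, did not pass. Apcs fell by 2.91 (edgeR adjusted p = 0.0284), with 132, 943 and 141 CPM on chow and 43.7, 70.9 and 47.0 CPM on FFC, chow replicate 2 standing highest. Without that library the fall was 1.37, and in the knockout libraries alone, or without any 1 of the FFC libraries, the call was lost (adjusted p from edgeR 0.0713 to 0.101 in the latter).

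Amino acid catabolism genes were lower. Of 33 genes of the urea cycle and amino acid breakdown, 18 fell and 0 rose (median -0.90). Gnmt, which disposes of methyl groups from methionine, had 2625, 2299 and 2749 CPM in the chow and 526, 515 and 742 CPM in the FFC libraries. The 3 chow libraries were each more than 3 times as high as any FFC library (log2 change -2.105, SE 0.22, edgeR adjusted p = 2.6e-05). Asl, the urea cycle enzyme argininosuccinate lyase, fell from 972, 896 and 1061 CPM to 330.4, 280.1 and 349.6 CPM (log2 change -1.61, SE 0.19, edgeR adjusted p = 4.9e-05). Agxt, which detoxifies glyoxylate, fell by 1.90, and Bckdha, of branched-chain amino acid breakdown, by 1.42. Of 17 targets of ATF4, the transcription factor of amino acid shortage, 5 fell and 2 rose. Asns, asparagine synthetase, had 2.11, 22.9 and 2.50 CPM on chow, with replicate 2 highest, and 0.232, 0.709 and 0.790 CPM on FFC (log2 change -3.99, SE 0.87, edgeR adjusted p = 0.00566; -2.01 without knockout chow replicate 2). Shmt2, of mitochondrial one-carbon metabolism, fell by 1.06. The ATF4 list had 2 genes called in the knockout libraries alone and 3 without knockout FFC replicate 4, and without knockout chow replicate 1 it split into 3 higher and 2 lower.

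Genes of drug and steroid metabolism were lower. Of 29 genes of cytochrome P450 families 1 to 3 and their regulators, 16 fell and 1 rose (median -0.86). Cyp2d10 stood at 1607, 1406 and 1272 CPM on chow and 476, 438 and 554 CPM on FFC (log2 change -1.55, SE 0.18, edgeR adjusted p = 5.8e-05). Cyp1a2, a pericentral enzyme, stood at 898, 572 and 914 CPM on chow and 198, 148 and 249.7 CPM on FFC (log2 change -2.0, SE 0.30, edgeR adjusted p = 3.3e-04). Cyp2b13 went the other way, from 0.147, 0 and 0.132 CPM to 7.96, 6.38 and 2.01 CPM (log2 change 5.84, SE 0.84, edgeR adjusted p = 2.3e-04; 6.44 without knockout chow replicate 1 and 5.21 without replicate 2). These families consist of near-identical copies, so the split of reads among Cyp2c, Cyp2d, Cyp2b and Cyp3a members is uncertain. Cyp2b10, a target of the receptor CAR, was highest in chow replicate 3 (10.2, 4.74 and 85.1 CPM on chow, 2.75, 2.13 and 0.362 CPM on FFC) and its call (log2 change -4.24, SE 1.34, edgeR adjusted p = 0.0474) was lost in 17 of 25 settings, with -2.14 and an edgeR adjusted p of 0.113 without that library. Of 29 genes of conjugation, 17 fell and 1 rose (median -0.74), with 9 called without knockout FFC replicate 1, 11 without knockout FFC replicate 7 and 10 in the knockout libraries alone. Gstt2, a glutathione transferase, fell from 118, 145 and 161 CPM to 72.9, 55.6 and 68.5 CPM (log2 change -1.11, SE 0.17, edgeR adjusted p = 3.6e-04).

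Listed genes of growth hormone action and sex-biased expression were lower where they passed the test, and hepatokine genes moved both ways. Growth hormone action itself was not tested, and a lower level of a listed gene does not give its direction. Igfbp2, an insulin-like growth factor binding protein, had 766, 639 and 698 CPM in the chow and 155, 149 and 168 CPM in the FFC libraries (log2 change -2.16, SE 0.22, edgeR adjusted p = 1.5e-05). Igfals, the acid-labile subunit that holds IGF1 in plasma, fell from 248, 148 and 113 CPM to 47.3, 42.2 and 56.8 CPM (log2 change -1.80, SE 0.26, edgeR adjusted p = 2.1e-04). In all, 5 of 18 genes of growth hormone action and sex-biased expression fell and 0 rose, with 3 called without knockout chow replicate 1 or in the knockout libraries alone and 2 without knockout FFC replicate 1. Of 16 hepatokines 4 fell and 3 rose. Fetub, fetuin-B, fell by 1.27. Fgf21 (1.38, edgeR adjusted p = 0.208) and Gdf15 (0.33, edgeR adjusted p = 0.705), stress hormones of liver, did not pass and lay under 3 CPM in every knockout library. Without knockout chow replicate 1 their log2 changes were 2.45 and 1.34 (edgeR adjusted p 0.0639 and 0.0937). Hamp, which encodes the iron hormone hepcidin, fell from 722, 1221 and 676 CPM to 234, 450.0 and 302 CPM (log2 change -1.41, SE 0.29, edgeR adjusted p = 0.00210). Its regulators Tmprss6 and Tfr2 fell by 1.43 and 1.43, while Hfe2, the co-receptor hemojuvelin, rose by 0.97.

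Many genes of the respiratory chain and the proteasome were lower on FFC, relative to a scaling whose factors differed by diet. The part of the scaling in these modest median changes was not tested. Of 27 nuclear genes of the respiratory chain, 17 fell and 1 rose (median -0.58), and 11 were called without knockout FFC replicate 1. With GC and length offsets 14 fell (median -0.39). Uqcrc1, a core subunit of complex III, stood at 428, 335 and 364 CPM on chow and 175, 133 and 172 CPM on FFC (log2 change -1.23, SE 0.16, edgeR adjusted p = 1.2e-04). Of 26 proteasome genes 12 fell and 2 rose (median -0.34). All but 1 of those that fell were subunits of the 20S core, and Psmb3 had the largest fall of the list at -1.25 (SE 0.20, edgeR adjusted p = 3.7e-04). The proteasome count was 4 without knockout FFC replicate 1 and 9 without knockout chow replicate 2, without knockout FFC replicate 4 or in the knockout libraries alone. With GC and length offsets 9 proteasome genes fell and 1 rose (median -0.187). B2m, the light chain of MHC class I, fell from 2705, 3498 and 3177 CPM to 1466, 1691 and 1696 CPM (log2 change -0.95, SE 0.20, edgeR adjusted p = 0.00257). Processed pseudogenes, intronless copies of mRNAs, were lower in 254 of 883 tested and higher in 8 (median log2 change -0.98), while of 449 lincRNAs 75 were higher and 12 lower. Reads of a parent gene can be counted at its pseudogenes, so these are uncertain.

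Stress genes did not move as a block. Of 20 targets of NRF2, the regulator of antioxidant defence, and metallothioneins, 5 rose and 6 fell, and 6 were called in all without knockout FFC replicate 1. Nfe2l2, which encodes NRF2, rose from 40.4, 52.4 and 54.5 CPM to 85.9, 103 and 90.0 CPM (log2 change 0.92, SE 0.17, edgeR adjusted p = 0.00111). Srxn1, sulfiredoxin, stood at 21.2, 20.8 and 24.4 CPM on chow and 55.2, 54.9 and 54.1 CPM on FFC (log2 change 1.31, SE 0.18, edgeR adjusted p = 1.6e-04). Gpx1 and Sod1, which remove peroxide and superoxide, fell by 0.96 and 0.86, and the Gpx1 call was lost with GC and length offsets (log2 change -0.30). Of 24 genes of folding in the endoplasmic reticulum 4 fell, near the 12.8% of all tested genes, and 0 rose. The number that fell ranged from 2 without knockout FFC replicates 1 or 4 to 9 without knockout chow replicate 3. Dnajb9, a co-chaperone, fell by 0.85.

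Genes of p53 and of cell division were higher. Of 14 p53 targets 7 rose and 0 fell (median 0.94). Cdkn1a, the cell cycle inhibitor p21, had 1.18, 0.255 and 0.461 CPM in the chow and 8.89, 10.5 and 3.62 CPM in the FFC libraries (log2 change 3.57, SE 0.53, edgeR adjusted p = 2.6e-04; 4.45 without knockout chow replicate 1). Mdm2, the ligase that degrades p53, stood at 10.5, 9.07 and 13.8 CPM on chow and 24.5, 23.0 and 23.3 CPM on FFC (log2 change 1.09, SE 0.19, edgeR adjusted p = 6.5e-04), and Ccng1, a cyclin, rose by 0.98. Of 26 cell division genes 13 rose and 0 fell (median 1.37), with 8 called in the knockout libraries alone or without knockout FFC replicate 1. Mcm4, of the replicative helicase, stood at 1.13, 1.27 and 1.05 CPM on chow and 8.93, 6.52 and 5.70 CPM on FFC (log2 change 2.61, SE 0.32, edgeR adjusted p = 6.5e-05). Ccnd1, cyclin D1, stood at 20.9, 10.9 and 6.58 CPM on chow and 35.6, 37.4 and 37.6 CPM on FFC (log2 change 1.52, SE 0.30, edgeR adjusted p = 0.00184), and overlaps Oraov1 on the other strand. Mki67, a marker of dividing cells named after its values were seen, stood at 0.0490, 2.04 and 0.132 CPM on chow and 6.07, 6.96 and 2.27 CPM on FFC (log2 change 2.74, SE 0.78, edgeR adjusted p = 0.0185). The chow level stood almost wholly in replicate 2, without which the change was 5.80, and the call was lost without knockout FFC replicates 1 or 4 (edgeR adjusted p 0.0514 and 0.0593).

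Macrophage genes were higher on FFC. Of 19 general macrophage markers 11 rose and 0 fell (median 0.97), and their summed level was 429 to 602 CPM on chow and 929.6 to 1120.3 CPM on FFC, with 14 called without knockout chow replicate 1 and 17 with GC and length offsets. Emr1, the F4/80 antigen of mature macrophages, had 13.9, 19.6 and 15.3 CPM in the chow and 37.6, 74.7 and 60.1 CPM in the FFC libraries (log2 change 1.82, SE 0.23, edgeR adjusted p = 8.9e-05). Lyz2, whose locus drives the Cre, had 44.8, 40.8 and 54.8 CPM in the chow and 92.2, 159.9 and 123 CPM in the FFC libraries (log2 change 1.42, SE 0.20, edgeR adjusted p = 1.6e-04). Mpeg1, a pore-forming protein of phagocytes, rose by 1.83. The complement genes C1qa, C1qb and C1qc, which are abundant in macrophages, did not pass (0.29, 0.40 and 0.45), though C1qa and C1qb did without knockout chow replicate 1 (0.61 and 0.68, edgeR adjusted p 0.0445 and 0.0112). Of 15 Kupffer cell markers 6 rose and 1 fell, with 3 called in the knockout libraries alone and 4 without knockout FFC replicate 4. Marco, a scavenger receptor, stood at 11.7, 16.1 and 9.08 CPM on chow and 26.1, 48.6 and 50.1 CPM on FFC (log2 change 1.76, SE 0.31, edgeR adjusted p = 7.8e-04). Clec4f and Vsig4, lectin and complement receptor of resident Kupffer cells, stood at 125, 89.1 and 85.0 and 29.0, 43.4 and 39.8 CPM on chow and at 154, 169 and 182 and 62.0, 88.5 and 61.6 CPM on FFC. In both genes all FFC libraries were above all chow libraries, as in 23.4% of tested genes, and the log2 changes were 0.76 and 0.92.

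Lipid-associated macrophages, which gather around steatotic hepatocytes, had 8 of 15 tested markers higher and 0 lower (median 1.43). Of the 15, 1 had no count in any chow library, so its direction was fixed by the filter on low counts. The summed level of these markers overlapped between diets, at 735 to 1078 CPM on chow and 839 to 1118 CPM on FFC. Mmp12, macrophage elastase, had 0.686, 1.63 and 0 CPM in the chow and 24.0, 15.7 and 10.6 CPM in the FFC libraries (log2 change 4.36, SE 0.61, edgeR adjusted p = 4.1e-04; 5.41 without knockout chow replicate 2). Capg, an actin-capping protein, stood at 2.89, 1.33 and 0.790 CPM on chow and 10.3, 9.59 and 6.42 CPM on FFC (log2 change 2.37, SE 0.39, edgeR adjusted p = 5.0e-04; 3.02 without knockout chow replicate 1). Anxa5, annexin A5, rose from 67.5, 75.0 and 71.1 CPM to 201, 169 and 167 CPM (log2 change 1.33, SE 0.17, edgeR adjusted p = 8.1e-05). Trem2, a lipid-sensing receptor, stood at 0.979, 1.33 and 0.724 CPM on chow and 6.60, 2.47 and 3.79 CPM on FFC (log2 change 2.07, SE 0.54, edgeR adjusted p = 0.0101), with an edgeR adjusted p of 0.0623 without knockout FFC replicate 1. Spp1, osteopontin, had 26.0, 39.6 and 28.0 CPM on chow and 145, 69.3 and 45.5 CPM on FFC and did not pass (log2 change 1.47, SE 0.59, edgeR adjusted p = 0.0938; 0.88 without knockout FFC replicate 1).

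Of 14 monocyte markers 5 rose and 2 fell, while their summed level was lower on FFC, at 1946 to 2549 CPM on chow and 1386 to 1892 CPM on FFC with no overlap. Of the 14, 2 had no count in any chow library, so their direction was fixed by the filter on low counts. The 5 can include such markers. The 2 that fell were Ifitm3, an interferon-induced membrane protein, with 614, 905 and 564 CPM on chow and 374, 370.1 and 403 CPM on FFC (log2 change -0.86, SE 0.23, edgeR adjusted p = 0.0116), and Msrb1, a methionine sulfoxide reductase, with 529.8, 515 and 402 CPM on chow and 265, 323 and 332 CPM on FFC (log2 change -0.65, SE 0.17, edgeR adjusted p = 0.00818). Neither passed with GC and length offsets (edgeR adjusted p 0.133 and 0.512), nor did Msrb1 without knockout FFC replicate 1 (0.0548). Ms4a6c, a membrane protein of monocytes, stood at 1.37, 2.29 and 2.70 CPM on chow and 7.43, 9.66 and 6.32 CPM on FFC (log2 change 1.89, SE 0.31, edgeR adjusted p = 5.4e-04). It shares exon bases with BE692007 on the other strand. Ccr2, the receptor that calls monocytes into tissue, stood at 0.392, 1.22 and 0.724 CPM on chow and 7.70, 3.28 and 1.94 CPM on FFC (log2 change 2.46, SE 0.54, edgeR adjusted p = 0.00374; 1.74 without knockout FFC replicate 1, the highest library). Ly6c2, the surface marker of inflammatory monocytes, did not pass (-0.53, edgeR adjusted p = 0.500). Among 26 chemokines and receptors 9 rose and 1 fell, with 6 called in the knockout libraries alone or without knockout FFC replicate 7. Their summed level overlapped between diets, at 347 to 499 CPM on chow and 356 to 408 CPM on FFC. Of the 26, 3 had no count in a whole knockout group, among them Ccl3 and Ccl7, which attract monocytes. Both had 0 counts in all chow libraries and passed the filter on low counts through other libraries, which fixed their direction. Their levels on FFC were at least 18.6-fold and 12.7-fold above a floor of 3 counts over the chow group. Ccl2, the main ligand of Ccr2, did not pass (2.103, edgeR adjusted p = 0.113; adjusted p 0.0462 without wild-type chow replicate 4). Neutrophil markers were too few to describe: 5 of 13 were tested, Csf3r rose, and S100a8 (-0.98) and S100a9 (-0.86) did not pass. Without knockout chow replicate 2 these changes were 0.70 and 0.08, and without knockout chow replicate 3 S100a9 fell by 1.21 (edgeR adjusted p = 0.0494). The Csf3r call was lost without knockout chow replicates 2 or 3 or knockout FFC replicates 1 or 4 (edgeR adjusted p 0.0641 to 0.0858).

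**Figure D4:**
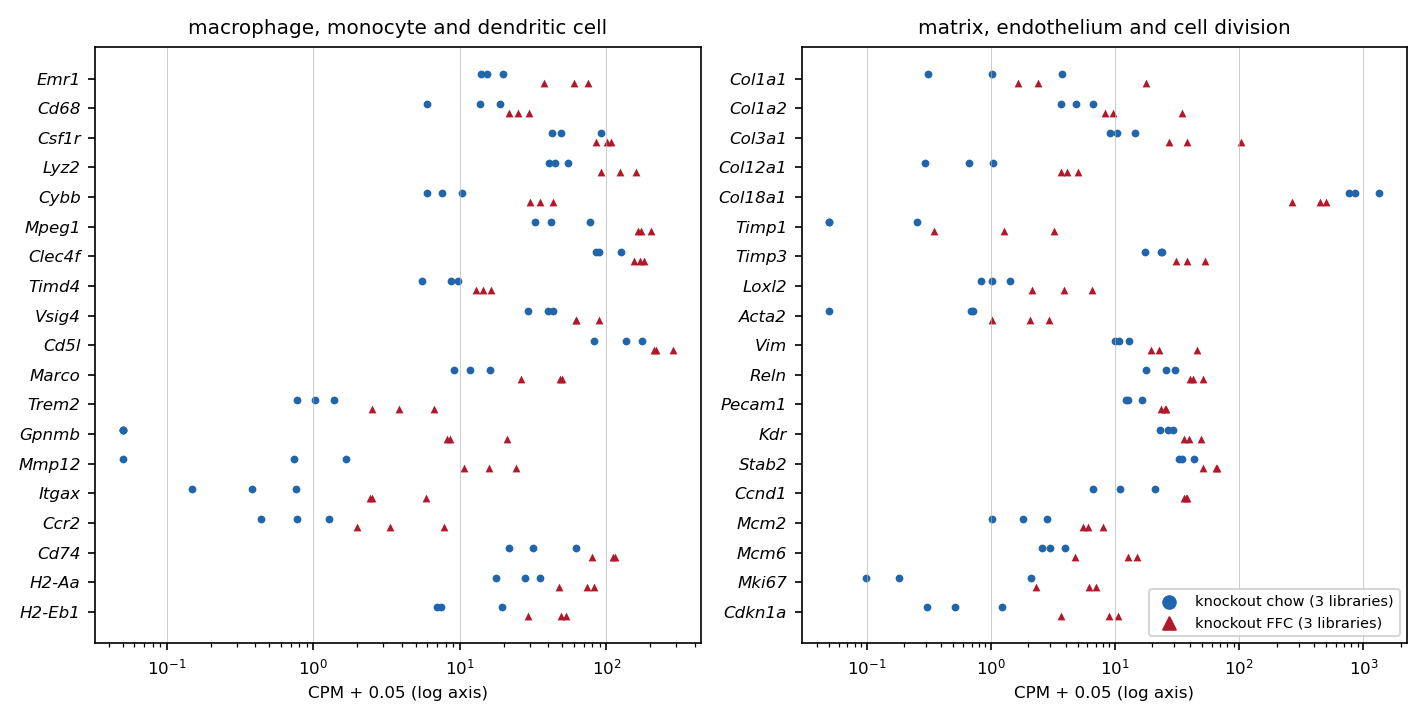
Levels of cell type, matrix and cell division genes in the 6 knockout libraries. Each point is 1 library on a log axis of CPM + 0.05, with blue circles for chow and red triangles for FFC; a library at 0 is drawn at 0.05, and the genes drawn were chosen after their values were seen. Emr1, Mpeg1 and Cd74 separate the diets, while the ranges of Col1a1 overlap and its FFC value of 17.8 CPM in replicate 1 stands apart.

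Antigen presentation genes of class II were higher. Of 7 tested 4 rose and 0 fell (median 1.34), and the median was 1.95 without knockout chow replicate 1, in which these genes were highest among chow libraries. H2-Aa had 35.4, 17.6 and 27.6 CPM in the chow and 73.7, 82.8 and 47.3 CPM in the FFC libraries (log2 change 1.34, SE 0.27, edgeR adjusted p = 0.00194). Its partner H2-Eb1 rose by 1.96 (2.60 without knockout chow replicate 1), and Cd74, the invariant chain, had 62.1, 21.5 and 31.5 CPM on chow and 110.2, 114 and 79.6 CPM on FFC (log2 change 1.398, SE 0.28, edgeR adjusted p = 0.00198). Markers of dendritic cells, which present antigen to T cells, were called for 4 of 12 genes, but for 0 in the knockout libraries alone, 1 without knockout FFC replicate 1 and 2 without knockout FFC replicate 4. Naaa, a lipid amidase, was the single one of the 4 to exceed 5 CPM in any knockout library, and its call was lost without knockout FFC replicate 1 (edgeR adjusted p = 0.0513). Lymphocyte markers were mostly near the limit of counting. Of T and NK cell genes 2 of 21 rose, below the 13.7% of all tested genes. Of B and plasma cell genes 3 of 11 rose, and 0 fell in either list. Cd3e, the signalling chain of the T cell receptor, did not pass (-0.32, edgeR adjusted p = 0.854; a change of 0.75 without knockout chow replicate 2). The T cell count ranged from 1 to 4 as knockout chow replicates 2 or 3, knockout FFC replicates 4 or 7 and wild-type FFC replicates 3 or 4 were left out.

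Sensors of microbial products and interferon-induced genes were also higher. Of 15 Toll-like receptors and adaptors 8 rose and 0 fell (5 without knockout FFC replicate 4). Tlr1, a receptor for bacterial lipopeptide, stood at 0.392, 0 and 0 CPM on chow and 4.48, 7.03 and 3.62 CPM on FFC (log2 change 5.11, SE 0.68, edgeR adjusted p = 1.2e-04), with a log2 change of 4.48 without knockout chow replicate 2; without knockout chow replicate 1 no chow library had a count. Tlr5, the flagellin receptor, stood at 6.66, 6.78 and 7.57 CPM on chow and 18.8, 14.6 and 21.9 CPM on FFC (log2 change 1.397, SE 0.26, edgeR adjusted p = 0.00110). Tlr4 did not pass (0.46, edgeR adjusted p = 0.505). Of 25 interferon-induced genes 13 rose and 0 fell (median 0.79), with 8 called in the knockout libraries alone. Rsad2, the antiviral protein viperin, stood at 2.64, 3.01 and 2.83 CPM on chow and 7.37, 7.46 and 9.75 CPM on FFC (log2 change 1.53, SE 0.29, edgeR adjusted p = 0.00137), and Gbp6, a guanylate-binding protein, rose by 1.60.

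Of 20 integrins and adhesion molecules 11 rose and 1 fell (median 1.11). Itgb2, the shared beta chain of leukocyte integrins, had 6.66, 5.15 and 4.74 CPM in the chow and 24.5, 21.3 and 18.9 CPM in the FFC libraries (log2 change 1.96, SE 0.26, edgeR adjusted p = 1.0e-04). Cd44, a hyaluronan receptor, had 5.19, 2.40 and 2.83 CPM in the chow and 20.3, 23.7 and 16.3 CPM in the FFC libraries (log2 change 2.53, SE 0.28, edgeR adjusted p = 3.6e-05). The one that fell was Itga5, the alpha chain of the fibronectin receptor, from 37.2, 25.7 and 18.4 CPM to 14.3, 10.9 and 13.3 CPM (log2 change -1.08, SE 0.23, edgeR adjusted p = 0.00290).

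Many of the matrix and stellate cell genes tested were higher, with FFC replicate 1 above the other FFC libraries for several of them. Of 24 markers of stellate cells and myofibroblasts 7 rose and 0 fell (median 0.85), their summed level was 456 to 504 CPM on chow and 539 to 753 CPM on FFC, and 11 rose without knockout chow replicate 1. Sparc, a matrix-associated glycoprotein, stood at 44.7, 39.5 and 32.5 CPM on chow and 114, 74.5 and 57.2 CPM on FFC (log2 change 1.07, SE 0.23, edgeR adjusted p = 0.00309). Tpm2, a tropomyosin, stood at 4.60, 6.52 and 3.88 CPM on chow and 21.4, 12.1 and 18.2 CPM on FFC (log2 change 1.78, SE 0.30, edgeR adjusted p = 6.5e-04), and Rgs5, a pericyte marker, rose by 1.03. Of 18 collagens 6 rose and 1 fell (median 1.08). The summed level of the collagens did not rise with this median, at 864 to 1519 CPM on chow and 476 to 947 CPM on FFC with an overlap. Col14a1 stood at 25.0, 22.5 and 31.3 CPM on chow and 81.9, 51.3 and 48.5 CPM on FFC (log2 change 1.21, SE 0.22, edgeR adjusted p = 9.9e-04), and Col12a1 rose by 2.81. Col1a1, the main fibrillar collagen of scars, had 3.72, 0.968 and 0.263 CPM on chow and 17.8, 2.33 and 1.61 CPM on FFC and did not pass (log2 change 2.097, SE 1.02, edgeR adjusted p = 0.157; 0.23 without knockout FFC replicate 1 and 3.49 without knockout chow replicate 1). The other chain of the same fibril, Col1a2, passed with 1.79 (edgeR adjusted p = 0.0121), but with edgeR adjusted p-values of 0.0708 without knockout FFC replicate 1 (log2 change 0.83) and 0.0511 without knockout chow replicate 3. Col18a1, the precursor of endostatin, was the one that fell, from 1346, 856 and 766 CPM to 504, 265 and 443 CPM (log2 change -1.29, SE 0.24, edgeR adjusted p = 0.00116). The number of collagens called was 3 without knockout chow replicate 3 and 4 without knockout chow replicate 2 or knockout FFC replicate 1.

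Of 22 genes of matrix turnover 9 rose and 0 fell (median 0.90), with 5 called in the knockout libraries alone. Thbs2, a thrombospondin, stood at 0.833, 0.765 and 0.790 CPM on chow and 3.55, 2.50 and 2.63 CPM on FFC (log2 change 1.86, SE 0.40, edgeR adjusted p = 0.00319). Loxl2, which crosslinks collagen, stood at 0.979, 1.38 and 0.790 CPM on chow and 6.50, 3.85 and 2.11 CPM on FFC (log2 change 1.97, SE 0.44, edgeR adjusted p = 0.00417). Timp1, an inhibitor of metalloproteases, had 0, 0.204 and 0 CPM on chow and 3.19, 1.22 and 0.296 CPM on FFC (log2 change 4.36, SE 1.16, edgeR adjusted p = 0.0111), and an edgeR adjusted p of 0.0714 without knockout FFC replicate 1 (log2 change 3.32). The change was 3.75 without knockout chow replicate 1, and without knockout chow replicate 2 no chow library had a count. Of 22 endothelial markers 7 rose and 0 fell (median 0.40), while their summed level overlapped between diets (452 to 586 CPM on chow, 495 to 642 CPM on FFC), with 4 higher and 1 lower without knockout FFC replicate 1, 4 with GC and length offsets and 3 in the knockout libraries alone. Pecam1, which joins endothelial cells, stood at 12.3, 16.5 and 12.6 CPM on chow and 25.8, 23.4 and 25.4 CPM on FFC (log2 change 0.85, SE 0.18, edgeR adjusted p = 0.00279). Stab2, a scavenger receptor of sinusoidal endothelium, stood at 43.0, 32.9 and 34.7 CPM on chow and 66.3, 50.6 and 65.3 CPM on FFC (log2 change 0.72, SE 0.17, edgeR adjusted p = 0.00562). Bile duct markers were called for 1 of 13 genes, Bicc1 (edgeR adjusted p = 0.0744 without knockout FFC replicate 1), for 0 with GC and length offsets, and for 2 without knockout chow replicates 1 or 3, knockout FFC replicate 7 or wild-type chow replicate 3. Krt19 (-0.90, edgeR adjusted p = 0.380) and Epcam (0.44, edgeR adjusted p = 0.645) did not pass. The summed level of the bile duct markers was 51.9 to 61.0 CPM on chow and 68.9 to 186 CPM on FFC, with no overlap and FFC replicate 1 highest. Markers of other tissues that a piece of liver could carry had enough counts to be tested for 2 of 11 genes of exocrine pancreas (Cela1 and Cela2a, both lower, Cela2a with an edgeR adjusted p of 0.0578 without knockout FFC replicate 4), 1 of 9 of skeletal muscle and 6 of 8 of erythroid cells. The summed level of the erythroid markers was 373 to 689 CPM on chow and 289 to 422 CPM on FFC, with an overlap. Of these markers the globins Hba-a1 and Hba-a2 fell, and lost their call without knockout chow replicates 1 or 2 or knockout FFC replicate 4. The part of blood in the other results was not tested.

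**Figure D5:**
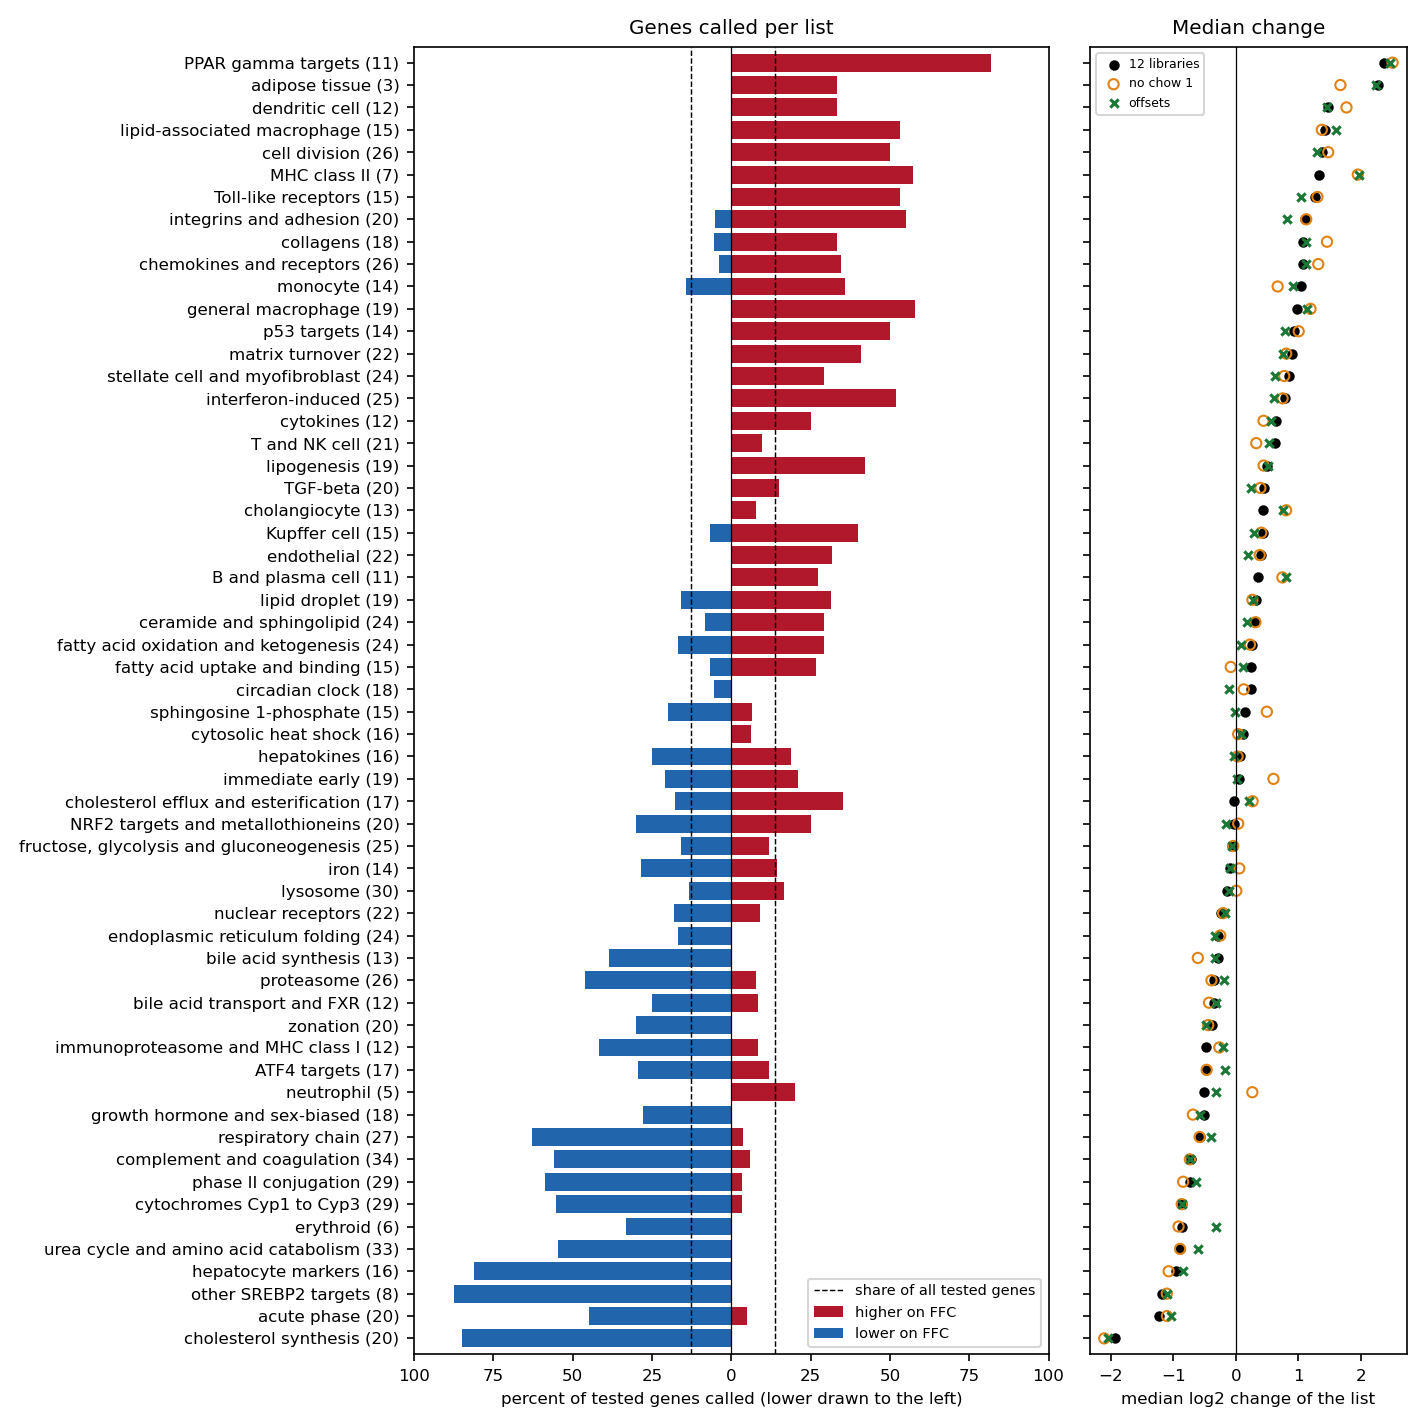
Gene lists in knockout liver, FFC against chow. Left, the percent of each list's tested genes (number in brackets) called higher (red) or lower (blue), with dashed lines at the shares of all tested genes, 13.7% and 12.8%. Right, the median log2 change of each list in the fit of 12 libraries (black), without knockout chow replicate 1 (orange rings, no chow 1 in the key) and with GC and length offsets (green crosses, offsets in the key); cholesterol synthesis stands lowest and PPAR gamma targets highest in each.

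Sphingosine 1-phosphate is made from the ceramide branch of lipid metabolism. Of 15 genes of sphingosine 1-phosphate signalling 3 fell and 1 rose, a share near the 26.5% called among all tested genes. Apom (ENSMUSG00000024391, mm10 chromosome 17, 35128997 to 35132050), the apolipoprotein that carries sphingosine 1-phosphate in plasma, had 458, 466 and 373 CPM in the chow and 98.5, 114 and 133 CPM in the FFC libraries. The FFC libraries reached at most 133 CPM and the chow libraries at least 373 CPM (log2 change -1.91, SE 0.19, edgeR adjusted p = 1.5e-05). Sphk2, a sphingosine kinase, fell by 0.86 and Spns1, a lysosomal lysophospholipid transporter, by 1.11, though Sphk2 overlaps Dbp and Rpl18 on the other strand and both calls were lost in the knockout libraries alone without chow replicate 1. The receptor genes S1pr2 (0.32, edgeR adjusted p = 0.501) and S1pr3 (0.91, edgeR adjusted p = 0.185) did not pass, though S1pr2 did without knockout chow replicate 1 (log2 change 0.95, edgeR adjusted p = 0.0153). Of 24 genes of ceramide and sphingolipid metabolism 7 rose and 2 fell, with 4 higher and 2 lower without knockout chow replicate 2, 5 called without knockout FFC replicate 1, 3 without knockout FFC replicate 4, 5 in the knockout libraries alone, and 4 higher and 4 lower with GC and length offsets. Sptlc2, of the enzyme that starts sphingolipid synthesis, stood at 11.7, 20.3 and 11.8 CPM on chow and 33.9, 37.1 and 28.0 CPM on FFC (log2 change 1.17, SE 0.21, edgeR adjusted p = 8.7e-04). Smpd3, neutral sphingomyelinase, rose by 2.13 (1.49 without knockout FFC replicate 1). Its exons overlap those of Prmt7 on the other strand, which had the higher count. Smpd1, the acid form, fell from 99.7, 69.3 and 56.3 CPM to 43.5, 41.3 and 44.1 CPM (log2 change -0.81, SE 0.19, edgeR adjusted p = 0.00520).

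Many genes had counts in the FFC libraries alone. Of the tested genes, 209 had no count in any knockout chow library and 1 had none in any knockout FFC library, so that the 209 passed the filter on low counts through other libraries and their direction was fixed by how they were chosen. At equal effective depth the numbers were 223 and 2. Of the gene lists, 11 held a gene at 0 in a whole knockout group, so their counts can include calls of fixed direction. They were the lists of chemokines and receptors (3 genes), monocytes (2) and, with 1 gene each, lipid-associated macrophages, dendritic cells, T and NK cells and integrins. The lists of matrix turnover, cell division, ceramide and sphingolipid metabolism, PPAR gamma targets and immediate early genes also held 1 each. With those genes set at their lower bound, 0 list medians moved. After Gpnmb, those with the highest FFC level and an established symbol were Ddias, an apoptosis suppressor, at least 29.9-fold, Gria3, a glutamate receptor subunit, at least 28.9-fold, Sult1e1, estrogen sulfotransferase, at least 26.7-fold, and Racgap1, of cytokinesis, at least 25.4-fold higher, named after their values were seen.

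The diet response was then compared with that of wild-type liver, where 2734 genes (16.8%) passed the same test, 1427 higher (8.76%) and 1307 lower (8.03%). Of the calls, 1575 were made in the same direction in both genotypes, which is 36.5% of the knockout calls and 57.6% of the wild-type calls, and 9 were made in opposite directions. A gene called in one genotype alone is not shown to differ, and the difference of the diet effects was tested directly: 8 genes (0.0491%) passed at an adjusted p under 0.05, and 2624 (16.1%) had an unadjusted p under 0.05. The number was sensitive to the libraries, from 0 when single libraries were left out to 580 without knockout chow replicate 3 and 94 without knockout chow replicate 2, and limma-voom called 0, against 415 with DESeq2. None of the 30 genes with the largest changes passed this test, the closest being Cidec (edgeR adjusted p = 0.0839), whose log2 change was 3.61 in knockout and 5.68 in wild-type liver. Among the 8 genes that passed, Marco rose in knockout liver (1.76) and fell in wild-type liver (-0.96). Itga5 fell in knockout liver (-1.08) and rose in wild-type liver (0.86). Emc10, a subunit of a membrane protein insertion complex, fell from 85.1, 75.5 and 55.0 CPM to 24.3, 19.8 and 22.0 CPM in knockout liver (log2 change -1.71, SE 0.18, edgeR adjusted p = 2.9e-05), with a log2 change of -0.16 in wild-type liver.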

How the data were processed

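The authors deposited 1 table of raw counts per gene for the 12 libraries, whole numbers with no normalization. Per the series design text, paired-end mRNA reads were aligned to mm10 with TopHat 2.1.0, counted with featureCounts 1.4.6 and tested with edgeR 3.18.1; strandedness and the multi-mapping rule are not given in the sources used here, so antisense pairs, overlapping genes and paralogs are uncertain. Further named genes that share exon bases are Mogat1 with BC035947, Cyp2d10 with Gm27331, Bicc1 with 4930533K18Rik, and Cela2a with Casp9 and Ctrc. All 37 mitochondrial genes stood at 0.

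From the deposited counts, genes were filtered with filterByExpr, scaled by TMM and fitted with the quasi-likelihood test of edgeR 4.0.16 (R 4.3.3) in 4 groups of 3 libraries with 8 residual degrees of freedom; p-values were adjusted by Benjamini-Hochberg over all 16283 genes, with 0.05 as the threshold. Contrasts were FFC minus chow in knockout liver and the difference of that contrast from the wild-type one. Standard errors follow from the fold change and its F statistic. Counts were simulated for the 16283 genes, with 50 genes changed at each of -2, -1, 1 and 2 on the log2 scale. The fit of FFC against chow in knockout liver recovered 44 and 49 of those at -2 and 2. It recovered 16 and 21 of those at -1 and 1, with 10 false calls. All groups had the same spread in this simulation, and far fewer genes were changed than the 26.5% called in the data. Its recovery and false calls therefore do not carry over to the data. Alternatives used DESeq2 1.42.0, limma-voom 3.58.1, median-ratio size factors, other filters (none, or the stated RPKM of at least 1), GC and length spline offsets, thinning, the knockout libraries alone, a replicate block and each library left out; 2 alternatives, thinning to equal effective depth and the knockout libraries alone without chow replicate 1, were added after the data were seen. The knockout groups share a single replicate number, and deviations of same-numbered libraries correlated at -0.124 to 0.09, so the numbers were not taken to pair libraries.

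The comparison, its members and the 60 gene lists were chosen with earlier results of these data known. Named genes were those called with and without knockout chow replicate 1, above a minimum average log2 CPM of 2 and with levels that do not overlap (up to 15 per direction), up to 4 called members of each list by lowest p, and 15 anchor genes. Other list members, most of which did not pass, and the genes drawn in the plots were named after their values were seen. Some genes that the rule names are not reported here. RefSeq promoter windows were searched for motifs by exact match.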

Additional observations from a re-analysis of the deposited data

Results flagged for a closer look

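The diet effect differed between knockout and wild-type liver for 8 genes at an edgeR adjusted p of 0.0467 each, tested as the knockout change minus the wild-type change on the log2 scale. None of the 8 is a member of the lipid lists, and each held its call in only part of the other settings, 8 to 10 of the 23 in which the difference was tested.

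Marco, a scavenger receptor of Kupffer cells, differed by 2.72 (SE 0.43), with 1.76 in knockout and -0.96 in wild-type liver. Itga5, the alpha chain of the fibronectin receptor, differed by -1.94 (-1.08 and 0.86). Emc10, of the membrane protein insertion complex, differed by -1.55 (-1.71 and -0.16). Cyp17a1, a steroid hydroxylase, differed by -2.48, since it rose in wild-type liver (2.77) and stood at 0.29 in knockout liver.

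Clec2h, a C-type lectin, differed by 2.48, with a fall in both genotypes that was larger in wild-type liver (-1.42 and -3.90). Rfx4, a transcription factor, differed by 2.50 (2.24 and -0.26). N6amt1, a methyltransferase, differed by 2.00 (1.63 and -0.37), and Klhl25, an adaptor of ubiquitin ligases, by -1.93 (-1.12 and 0.82).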

How the results depend on the processing

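The number of genes called by diet in knockout liver was 4312. It was 2355 in the knockout libraries alone, 2307 with a fold of more than 2 and 2751 to 4978 with 1 library left out; the other settings stayed within 1.5 times (3289 to 5794), among them the replicate block with 3799. Leaving out any gene filter moved the median log2 change of all genes from 0.09 to 0.20. Of the named genes' values, 5475 kept their direction and side of the threshold, 404 were no longer past it, 9 newly passed it and 0 reversed; of 230 named genes called by diet, 148 never lost the call.

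The number called for the difference between genotypes, 8, was 600 with no filter, 396 with the replicate block, 415 with DESeq2, 24 with limma-voom with quality weights, 89 at an adjusted p under 0.1, 2 with GC and length offsets without knockout chow replicate 1, and 0 to 580 with 1 library left out. It was 0 with limma-voom and with thinning to equal depth or equal effective depth, beside 2624 genes at an unadjusted p under 0.05 in edgeR. The cause of these moves was not tested. Changes of 1 on the log2 scale were mostly missed in the simulated counts, which held fewer changed genes and the same spread in all groups. The share missed in the data is thus not known. With 3 libraries a group, genes that did not pass are not shown to be unchanged.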

Other observations

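Among 30 lysosome genes of knockout liver, 5 rose and 4 fell on FFC, near the 13.7% and 12.8% of all tested genes (3 and 2 without knockout FFC replicate 1, 3 and 7 without knockout chow replicate 3, 7 and 7 with GC and length offsets). Ctss, the cathepsin of antigen-presenting cells, rose by 1.45, while Gaa, which breaks down glycogen, fell by 1.42. Among 15 genes of fatty acid uptake 4 rose and 1 fell, with Acsl1, an acyl-CoA synthetase, at 0.80 and Slc27a4, a fatty acid transporter, at -1.02. Of 12 genes of the immunoproteasome and MHC class I, 5 fell and 1 rose (8 fell without knockout chow replicate 3, and 3 fell and 2 rose with GC and length offsets), and Psmb10, an immunoproteasome subunit, fell by 1.17. Of 22 nuclear receptors 4 fell and 2 rose, near the 12.8% and 13.7% of all tested genes. The number that fell was 2 without knockout chow replicate 1, knockout FFC replicate 1 or knockout FFC replicate 4. Rxrb, a partner of many receptors, changed by -1.09 and Esrra, a regulator of mitochondrial genes, by -0.99, and Esrra overlaps Trmt112.

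Of 12 cytokines 3 rose and 0 fell (1 without knockout FFC replicate 4), among them Il1rn, the interleukin 1 antagonist, at 1.38 on the log2 scale. Il1b and Tnf also rose, by 1.56 and 3.26. The Il1b call was lost without knockout chow replicate 1 or knockout FFC replicate 4 (edgeR adjusted p 0.0736 and 0.133). The Tnf call was lost without knockout chow replicates 2 or 3 or any 1 of the knockout or wild-type FFC libraries (edgeR adjusted p 0.0634 to 0.144). Without knockout chow replicate 1 the Tnf change was 7.25. Of 20 genes of TGF-beta signalling 3 rose, near the 13.7% of all tested genes, and 0 fell. The number that rose was 5 without knockout chow replicates 1 or 3 or wild-type chow replicate 3, and 6 without wild-type chow replicate 4. Ltbp1, which anchors latent TGF-beta, rose by 2.27. Of 20 zonation genes 6 fell and 0 rose (3 fell and 1 rose without knockout FFC replicate 4). Slco2a1, a prostaglandin transporter on that list, fell by 2.20. Of 19 immediate early genes 4 rose and 4 fell, and the larger of these counts was 3 or fewer without knockout chow replicate 1, knockout FFC replicates 1 or 4 or wild-type FFC replicate 3, and 3 rose and 1 fell with GC and length offsets. Of 16 cytosolic heat shock genes Hspa4l alone rose (1.12; 2 genes without knockout chow replicates 1 or 3 or knockout FFC replicate 1), and of 18 clock genes Per1 alone fell (-1.19; adjusted p from edgeR 0.0637 without knockout chow replicate 1).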
